A study of Bombyx mori with 3 samples.

Results

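Peroxiredoxins, thioredoxins, superoxide dismutases, catalase and related redox enzymes were followed in the fat body of the silkworm Bombyx mori after feeding with the insecticide phoxim. The genes were chosen by the wording of their annotation on the array. A probe entered when its gene description named a peroxiredoxin, thioredoxin, superoxide dismutase, catalase, glutathione peroxidase, glutaredoxin or methionine sulfoxide reductase, and protein disulfide isomerases and dehydrogenases were left out. This gave 33 of the 23229 gene probes, each printed as a single spot, and 21 of the 33 were bright enough to be tested, against 6154 of all gene probes. Of the 33 probes, 11 carried a gene ID, and all 11 IDs were found under the same symbol in the RefSeq gene table (assembly ASM3026992v2). The other 22 are known by a probe name and by the protein of another organism or of the silkworm that their transcript resembled, so 2 probes may report the same gene.

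Larvae of strain p50, of mixed sex and on day 3 of the fifth instar, were fed mulberry leaves that had been soaked in a phoxim solution of 4 µg/mL, and control larvae were fed leaves soaked in water. Phoxim is an organophosphate, a class of insecticides that block acetylcholinesterase. Fat bodies were dissected 24 h later, with 30 larvae per experiment. On each of 3 arrays, the phoxim RNA of a replicate was hybridised together with the control RNA of the same number, in different dyes, so that 6 RNA samples were measured. Each value is therefore an average over many larvae, and a lower level in RNA from a whole organ cannot tell fewer cells of a type from less RNA per cell.

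The fat body is the insect organ of storage, intermediary metabolism and detoxification. Superoxide dismutases turn superoxide into hydrogen peroxide. Catalase splits hydrogen peroxide without a cofactor that must be regenerated, while peroxiredoxins and glutathione peroxidases reduce peroxides at the expense of a thiol. Thioredoxin supplies that thiol to most peroxiredoxins and to methionine sulfoxide reductases, and is itself restored by thioredoxin reductase with NADPH. In Drosophila, thioredoxin reductase also takes the place of glutathione reductase.

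No redox enzyme passed the test for a difference between phoxim and control RNA. With limma, adjusted over all 6154 probes, 0 of the 21 probes tested had an adjusted p under 0.05, and 0% of all probes did. The smallest adjusted p among the redox enzymes was 0.30 and the smallest of all probes 0.28. At an unadjusted p under 0.05 there were 3 redox enzyme probes, of which 2 were lower in phoxim RNA and 1 was higher, beside 10.9% of all probes tested (4.81% lower and 6.13% higher). The 2 lower probes belonged to peroxiredoxins (Jafrac1 and LOC733003) and the higher probe to catalase (Cat). Without replicate 2 the count was 1, Jafrac1 alone, and without replicate 1 it was 2, Jafrac1 and LOC733003. Without replicate 3 it was 3, with a Cu,Zn-superoxide dismutase probe (sw00814) in place of Cat. Jafrac1 entered the test on replicate 2 through control RNA alone. With all 3 arrays and both RNAs required above background it was left out. The count was then 2, LOC733003 and Cat, beside 349 of all probes kept. With 3 arrays, an exact permutation of the signs of a single probe cannot go below 0.25, two-sided.

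The values below are log2 ratios of phoxim over control RNA, so that 1 is a doubling and -1 a halving. Their mean over the 3 arrays ranged from -1.55 for Jafrac1 to 0.90 for a Cu,Zn-superoxide dismutase probe, each of which includes an array with one RNA not above background. The median of the 21 means was 0.06, against 0.00 over all probes tested, and 13 of the 21 means lay within 0.3 of 0. The 95% confidence interval from limma had a median half-width of 0.75, and it spanned 0 for 18 of the 21 probes. Before adjustment, changes well below 2-fold could therefore not be resolved, and after adjustment no probe passed, whatever its mean. The SD between arrays had a median of 0.52 for the redox enzymes and 0.49 for all probes, with 12 of the 21 above that of all probes, as 50% of all probes are by construction. As a measure of technical spread, 5 silkworm probes were printed 49 times per array, and the SD of their log2 ratio within an array was 0.17 to 0.25. Their means still differed between arrays, with an SD of 0.13 to 0.47.

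**Figure D1:**
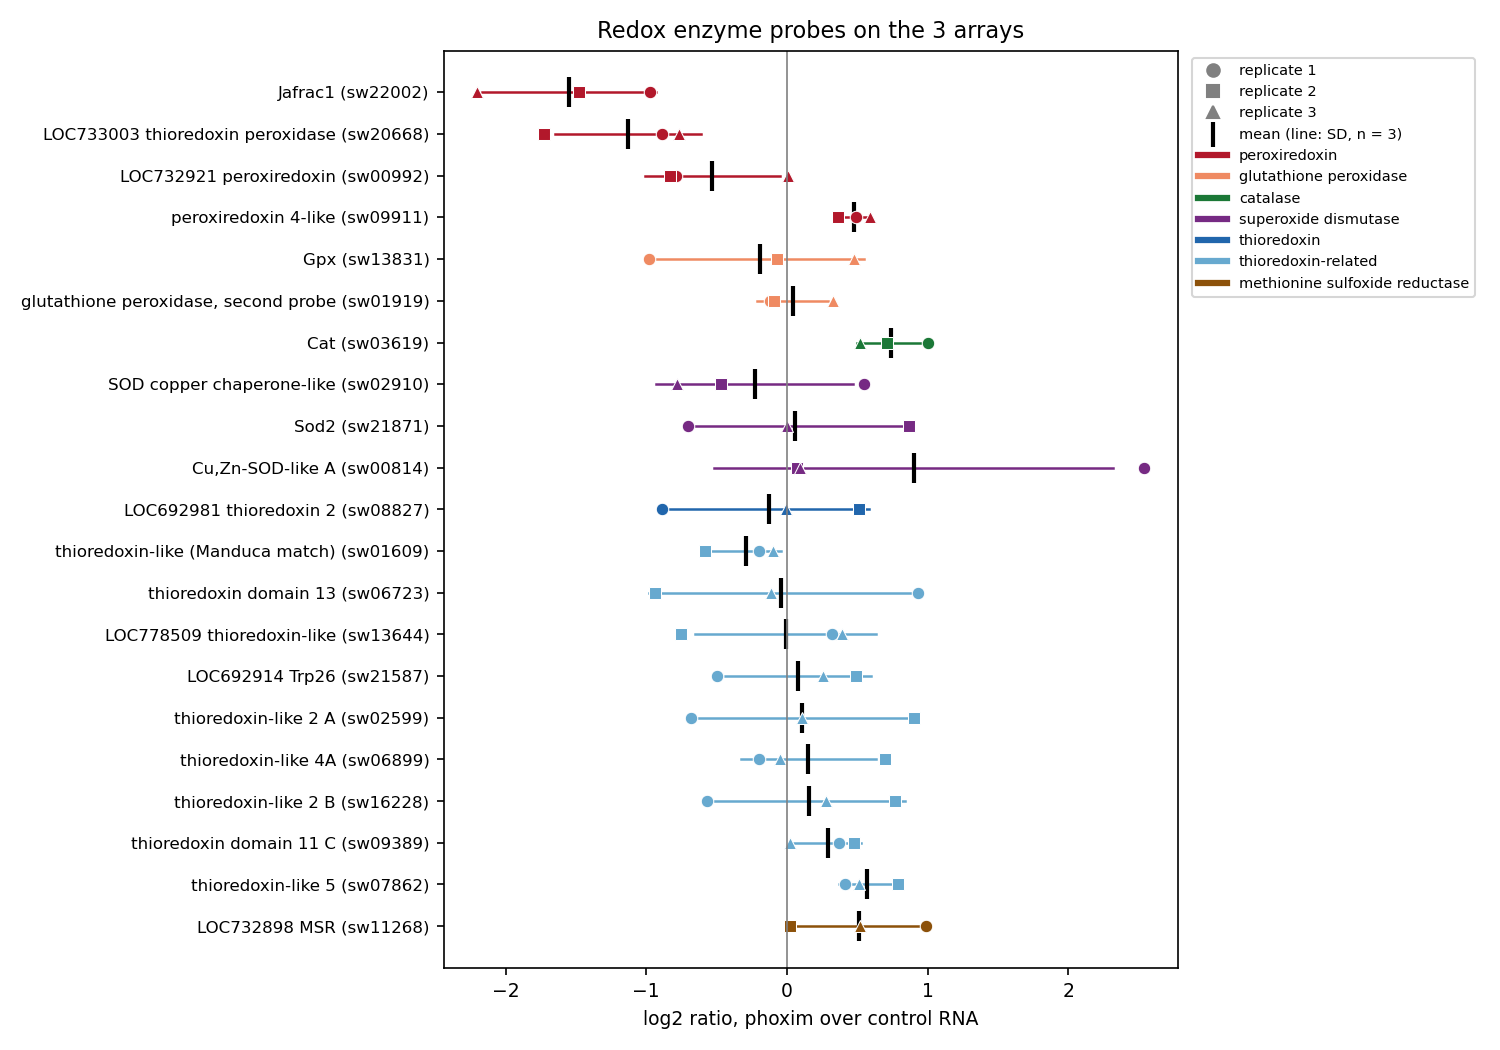
Log2 ratio of phoxim over control RNA (x axis) for the 21 redox enzyme probes tested, with a symbol for each replicate array, a black bar for the mean, a line for the SD (n = 3) and colours for the families. Jafrac1 and the thioredoxin peroxidase LOC733003 lie below 0 on all arrays and Cat, the peroxiredoxin 4-like probe and the thioredoxin-like 5 probe above 0 in the direction of the file headers, while Sod2 and the thioredoxin-like 2 probes lie on both sides of 0.

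The direction on replicate 2 rests on the file header. The labels place phoxim RNA in the Cy5 dye on every array, whereas on replicate 2 the column names of the file give Cy5 to the control RNA and Cy3 to the phoxim RNA. The header was followed. On replicate 2, the deposited ratios had the sign of the header direction for every redox probe tested except Gpx and LOC732898. Across the 21 redox enzyme probes, the log2 ratios of replicates 2 and 3 correlated at r = 0.62. The correlation was 0.30 between replicates 1 and 3, and 0.11 between replicates 1 and 2. Over all probes tested these coefficients were 0.27, 0.35 and 0.03 in the same order. These are descriptions across probes of the same arrays. With replicate 2 turned as labelled, the values over the redox enzymes would be -0.62 for replicates 2 and 3 and -0.11 for replicates 1 and 2. All values below follow the header unless the labelled direction is named, and signs on replicate 2 would be reversed under the labels.

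All 4 peroxiredoxin probes were tested. Jafrac1 (gene ID 692638, probe sw22002) carries the Drosophila name of a cytosolic peroxiredoxin and is described as a thiol peroxiredoxin. Its deposited intensities were 504, 275 and 288 in the phoxim RNA of replicates 1, 2 and 3, and 1082, 563 and 1500 in the control RNA. All phoxim values were below all control values. In replicate 2 the phoxim signal was not above background, which was set at the 95th percentile of the negative control spots. After normalization the log2 ratios were -0.97, -1.48 and -2.20, with a mean of -1.55 ± 0.62 (SD, n = 3) and a 95% interval of -2.33 to -0.76. Since phoxim RNA exceeded background on only 2 arrays, no fold is given. In limma the unadjusted p was 0.0025 and the adjusted p 0.30.

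LOC733003 (gene ID 733003, probe sw20668) is described as a thioredoxin peroxidase, a peroxiredoxin that draws on thioredoxin. Its intensities were 1728, 1066 and 1366 in phoxim RNA and 3402, 2629 and 2040 in control RNA. All 3 phoxim values were lower than all 3 control values. The log2 ratios were -0.89, -1.73 and -0.77, with a mean of -1.13 ± 0.52 (SD, n = 3), or 2.19-fold less in phoxim RNA (95% interval -1.88 to -0.38). In limma the unadjusted p was 0.0092 and the adjusted p 0.36. With replicate 2 turned as labelled, the mean of LOC733003 would be 0.02 and that of Jafrac1 -0.56.

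LOC732921 (gene ID 732921, probe sw00992), described only as peroxiredoxin, had intensities of 4445, 2733 and 5271 in phoxim RNA and 8201, 3750 and 3949 in control RNA. The groups overlapped, and on replicate 3 the phoxim intensity was above that of the control. The log2 ratios were -0.79, -0.83 and 0.01 (mean -0.53 ± 0.48, adjusted p = 0.55), and with replicate 2 as labelled the mean would be 0.02.

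The fourth probe (sw09911) resembles peroxiredoxin 4, which in vertebrates resides in the endoplasmic reticulum and couples peroxide removal to protein folding. Its log2 ratios were above 0 on all arrays. Its intensities were 1114, 1085 and 1622 in phoxim RNA and 783, 544 and 940 in control RNA, with all phoxim values above all control values. The log2 ratios of 0.49, 0.36 and 0.59 had a mean of 0.48 ± 0.11 (SD, n = 3), and the interval of -0.16 to 1.12 included 0 (adjusted p = 0.54). As labelled, replicate 2 would be -0.36 and the mean 0.24, with an SD of 0.52. On the same arrays, LOC733003 minus the peroxiredoxin 4-like probe came to -1.37, -2.09 and -1.36 on the log2 scale, and Jafrac1 minus that probe to -1.45, -1.85 and -2.78. With replicate 2 as labelled, its differences would be 2.09 and 1.85. These differences were taken after the values were seen and were not tested.

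**Figure D2:**
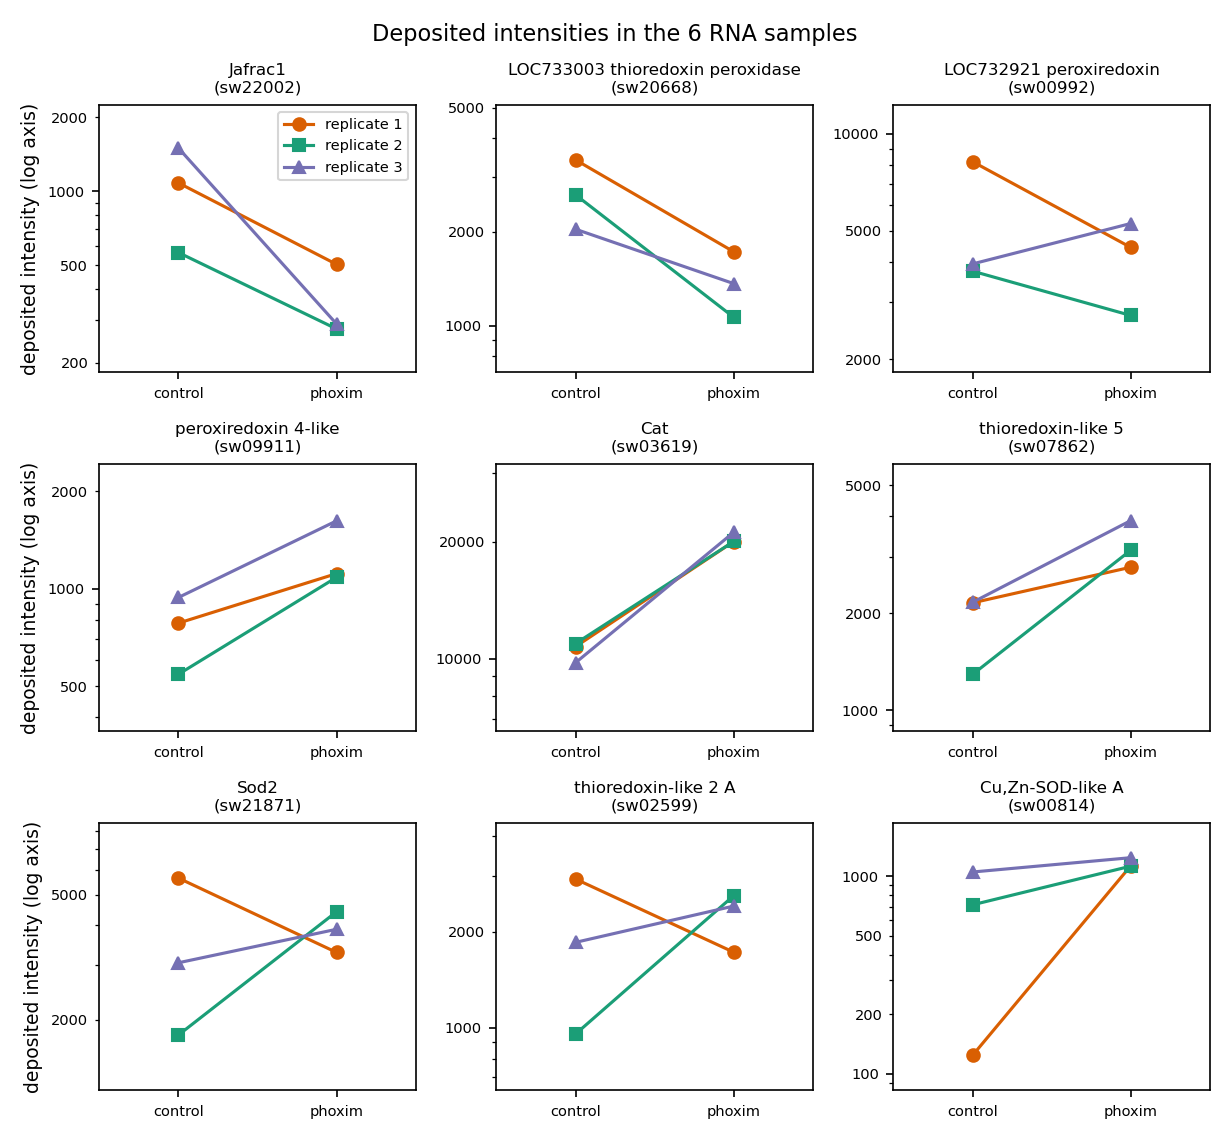
Deposited intensities (y axis, log scale) in control and phoxim RNA of 9 redox enzyme probes, with a line for each replicate array. The lines of Jafrac1 and LOC733003 fall and those of Cat rise on all 3 arrays (from 9754 to 10927 in control to 20005 to 21127 in phoxim RNA), while those of Sod2 cross.

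Catalase was represented by 3 probes, of which only that of the Cat gene was tested. Cat (gene ID 692456, probe sw03619) had intensities of 20005, 20011 and 21127 in phoxim RNA and 10731, 10927 and 9754 in control RNA. The phoxim values were all higher than the control values and varied little within each group. The log2 ratios were 1.00, 0.71 and 0.52, with a mean of 0.74 ± 0.24 (SD, n = 3), or 1.67-fold more in phoxim RNA (95% interval 0.08 to 1.40). In limma the unadjusted p was 0.033 and the adjusted p 0.43. With the authors' deposited ratios in place of the normalization used here the mean was 1.07, and with replicate 2 as labelled it would be 0.27. The other catalase probes, which resemble an archaeal and a human catalase (sw18487 and sw18410), were not above background in either RNA on any array.

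Glutathione peroxidase had 2 probes, both tested. Gpx (gene ID 692548, probe sw13831) had intensities of 1504, 1207 and 2811 in phoxim RNA and 3176, 864 and 1655 in control RNA, so the groups overlapped. Its log2 ratios of -0.98, -0.07 and 0.48 lay on both sides of 0 (mean -0.19 ± 0.74, interval -1.03 to 0.65, adjusted p = 0.88). The other probe (sw01919) had a mean of 0.04 ± 0.25 (adjusted p = 0.98). Both probes differed by 0.86 on replicate 1 and by no more than 0.15 on the other arrays.

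The superoxide dismutase probes gave no common direction. Sod2 (gene ID 692736, probe sw21871), the manganese enzyme of mitochondria, had intensities of 3278, 4422 and 3887 in phoxim RNA and 5660, 1788 and 3039 in control RNA. It was lower in phoxim RNA on replicate 1 and higher on replicate 2, with log2 ratios of -0.70, 0.87 and 0.00 (mean 0.06 ± 0.79, interval -0.81 to 0.93, adjusted p = 0.98). The control samples spread more widely than the phoxim samples. With replicate 2 as labelled, the mean of Sod2 would be -0.52. A further Mn-superoxide dismutase probe (sw21872) was never above background.

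A probe resembling Cu,Zn-superoxide dismutase (sw00814), the cytosolic type of enzyme, had a mean that rested on replicate 1. Its intensities were 1129, 1125 and 1242 in phoxim RNA and 124, 717 and 1051 in control RNA, and the control of replicate 1 was not above background. The log2 ratios were 2.54, 0.07 and 0.09 (mean 0.90 ± 1.42, adjusted p = 0.56). Without replicate 1 the mean was 0.08. The probe for the copper chaperone that loads this enzyme (sw02910) had log2 ratios of 0.55, -0.47 and -0.78 (mean -0.23 ± 0.70, adjusted p = 0.84). A further Cu,Zn-superoxide dismutase probe (sw05948) was never above background.

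The probe described simply as thioredoxin and both probes for its reductase gave little signal. Families were set by description, so a probe described as thioredoxin-like and given below may also read a thioredoxin. The probe of the thioredoxin gene LOC732882 (sw22957) exceeded background on only 2 arrays in each RNA and was not tested. Its intensities were 157, 152 and 63 in phoxim RNA and 235, 100 and 195 in control RNA, with log2 ratios of -0.29, -0.39 and -0.61. Both thioredoxin reductase probes (sw17513 and sw18122) stayed below background in all 6 samples. Mitochondrial thioredoxin 2 (LOC692981, gene ID 692981, probe sw08827) had log2 ratios of -0.89, 0.51 and -0.01 (mean -0.13 ± 0.71, adjusted p = 0.93). The only probe grouped under glutaredoxin (sw02072), similar to a cysteine-rich glutaredoxin, was above background on 2 arrays in phoxim RNA and on none in control RNA. It was not tested. The thioredoxin-like 2 probes are given separately below.

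Of the 13 other probes with a thioredoxin-related description, 9 were tested. The brightest was LOC778509 (gene ID 778509, probe sw13644), described as thioredoxin-like, with intensities of 13417, 8457 and 19129 in phoxim RNA and 11493, 12273 and 9699 in control RNA. Its groups overlapped, and the log2 ratios of 0.32, -0.75 and 0.39 averaged -0.01 ± 0.64 (interval -0.81 to 0.78, adjusted p = 0.99). A probe matching a thioredoxin-like protein of the hawkmoth Manduca sexta (sw01609) had log2 ratios of -0.20, -0.58 and -0.10 (mean -0.29 ± 0.25, adjusted p = 0.73).

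The thioredoxin-like 5 probe (sw07862) resembles a protein that in mammals is a cytosolic disulfide reductase related to thioredoxin. It had intensities of 2782, 3141 and 3882 in phoxim RNA and 2157, 1293 and 2165 in control RNA. All phoxim values were higher than all control values, with log2 ratios of 0.41, 0.79 and 0.51 (mean 0.57 ± 0.20, interval -0.08 to 1.22, adjusted p = 0.50). With the deposited ratios the mean was 0.81, and with replicate 2 as labelled it would be 0.04. The brightest of 3 probes resembling thioredoxin domain containing protein 11 (sw09389) had log2 ratios of 0.37, 0.48 and 0.02 (mean 0.29 ± 0.24, adjusted p = 0.73). The other probes of that name (sw07708 and sw06406) were too dim to be tested.

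Thioredoxin-like 2, known in vertebrates as a glutaredoxin that carries iron-sulfur clusters, was read by 2 probes (sw02599 and sw16228) that share 2 expressed sequence tags in the annotation. Their log2 ratios were -0.68, 0.90 and 0.11 for sw02599 and -0.57, 0.77 and 0.28 for sw16228, and they differed by at most 0.17 on an array. The means were 0.11 ± 0.79 and 0.16 ± 0.68 (adjusted p = 0.94 and 0.91), so the spread between arrays was far larger than the spread between the probes. With replicate 2 as labelled the means would be -0.49 and -0.36.

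Sod2, mitochondrial thioredoxin 2, both thioredoxin-like 2 probes, LOC692914 and the thioredoxin-like 4A probe shared the same order of arrays. All 6 were lower in phoxim RNA on replicate 1 and higher on replicate 2, and 20.1% of all probes tested behaved likewise. As labelled, the same 6 probes would be lower on both arrays, as would the same 20.1% of all probes. LOC692914 (gene ID 692914, probe sw21587), described as thioredoxin family Trp26, had log2 ratios of -0.50, 0.49 and 0.26. Thioredoxin-like 4A (sw06899), which in other animals is a part of the spliceosome, had -0.20, 0.70 and -0.05. The thioredoxin domain containing protein 13 probe (sw06723) had 0.93, -0.94 and -0.11, with each RNA above background on 2 arrays. It was one of 3 redox probes higher on replicate 1 and lower on replicate 2, with LOC778509 and sw02910, beside 31.9% of all probes.

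Methionine sulfoxide reductase, which repairs oxidised methionine with electrons from thioredoxin, had a single probe (LOC732898, gene ID 732898, probe sw11268). Its intensities were 1188, 1208 and 1388 in phoxim RNA and 564, 803 and 858 in control RNA. Each phoxim intensity exceeded each control intensity before normalization, whereas the normalized levels overlapped. The log2 ratios were 0.99, 0.02 and 0.52 (mean 0.51 ± 0.48, interval -0.22 to 1.24, adjusted p = 0.58).

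Across the families and in the header direction, 9 of the 21 probes had the same sign on all 3 arrays, 6 of them higher and 3 lower in phoxim RNA, beside 35.3% of all probes tested (18.2% higher and 17.1% lower). With replicate 2 as labelled, 3 of the 21 would have the same sign (LOC778509, LOC692981 and sw06899), beside 24.9% of all probes, and Jafrac1, LOC733003 and Cat would not. The normalized levels of both groups did not overlap for 6 probes, beside 13.7% of all probes (7.67% higher and 6.03% lower). They were higher in phoxim RNA for Cat, the peroxiredoxin 4-like, thioredoxin-like 5 and sw09389 probes and lower for Jafrac1 and LOC733003. Jafrac1 is in this count and in that of same signs although its phoxim signal on replicate 2 was not above background. For sw09389 the margin was slight, with a lowest phoxim level of 10.07 and a highest control level of 10.06 (log2). As labelled, the groups would be apart for 2 probes, LOC778509 and LOC692981, beside 8.97% of all probes. These shares are a description of few probes and no test of the family. Of the 12 probes not tested, 6 were never above background in either RNA, and their intensities as a group of 12 ran from -2 to 325. No redox enzyme spot was saturated.

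**Figure D3:**
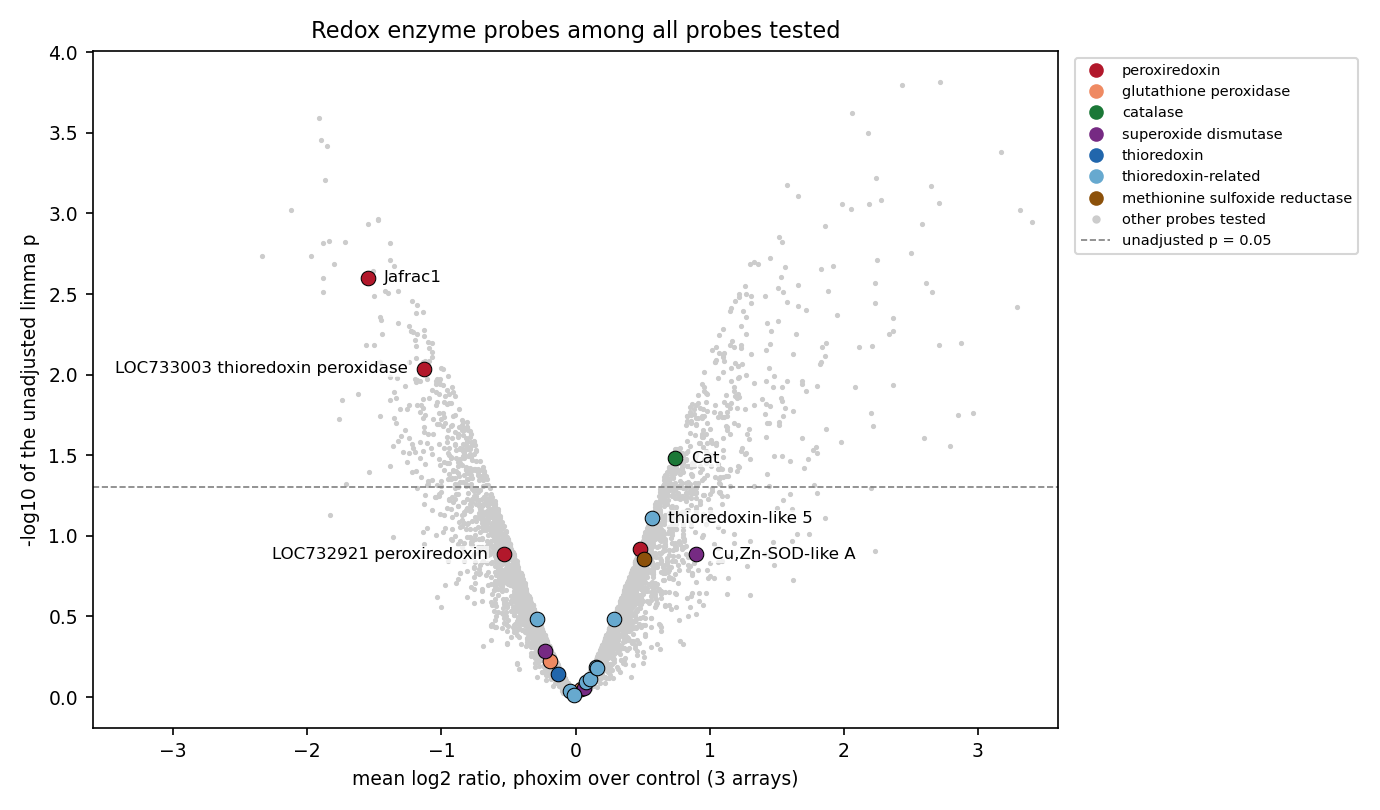
Mean log2 ratio of phoxim over control RNA (x axis) against -log10 of the unadjusted limma p (y axis) for all 6154 probes tested (grey) and the 21 redox enzyme probes (colours by family). Jafrac1, LOC733003 and Cat lie above the dashed line at an unadjusted p of 0.05, within the cloud of other probes, and none of the probes shown passed after adjustment.

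Lists of neighbouring pathways, drawn from the descriptions, gave 0 probes with an adjusted p under 0.05 by limma, as 0% of all probes did. At an unadjusted p under 0.05, 1 of their 34 tested probes was higher and 1 was lower, beside 6.13% and 4.81% of all probes. As labelled, 2 of the 34 probes would have such a p, and the medians of the lists would be 0.12 for glutathione S-transferases, 0.01 for NADPH supply, -0.42 for protein disulfide isomerases and 0.08 for metal handling. Of 14 tested glutathione S-transferase probes, enzymes that couple glutathione to toxic compounds, 8 had a mean above 0 and the median was 0.15. The higher probe was a transferase resembling a house fly enzyme (sw12179), with log2 ratios of 1.45, 0.71 and 1.13 (mean 1.10 ± 0.37, adjusted p = 0.35) and a control signal above background on 1 array. The second smallest p was that of Gsto (sw14925), an omega-class transferase, with 1.09, 0.26 and 0.75 (mean 0.70 ± 0.41, adjusted p = 0.46).

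The list for the supply of NADPH, the electron source of the thioredoxin system, had a median of -0.37 over 6 tested probes, of which 4 had a mean below 0. It also held transketolase and transaldolase, which do not themselves form NADPH. The transketolase gene LOC692848 entered with 2 probes, with means of -0.41 ± 0.97 and -0.34 ± 0.87, and the list median lay between them. A probe resembling a bacterial 6-phosphogluconate dehydrogenase (sw12264) had -0.09, -0.30 and -1.42 (mean -0.60 ± 0.71), and the NADPH-specific isocitrate dehydrogenase LOC100101164 had -2.08, 0.39 and -0.58 (mean -0.76 ± 1.24). The adjusted p was 0.56 and 0.59. The silkworm 6-phosphogluconate dehydrogenase gene LOC733113 (sw01471) had a mean of 0.25 ± 0.27. The 2 probes for glutathione synthetase (sw01111 and sw01112) had means of -0.18 ± 0.15 and 0.06 ± 0.22.

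Protein disulfide isomerases, which form disulfide bonds in the endoplasmic reticulum, had a median of -0.07 over 6 tested probes. The lower probe at an unadjusted p under 0.05 (sw14074) belonged to them, with -0.34, -0.69 and -1.42 (mean -0.82 ± 0.55, adjusted p = 0.44), and one of 2 probes for Erp57 (sw03612) had a mean of -0.37 ± 0.46. The other Erp57 probe (sw16039) had a mean of 0.01 ± 1.13. Among iron and metal binding proteins, 6 probes had a median of -0.14. The transferrin gene LOC692564 had -0.28, -0.42 and -1.64 (mean -0.78 ± 0.75, adjusted p = 0.48) and another transferrin probe (sw21709) a mean of -0.45 ± 0.41. Regulators of the antioxidant response had 2 probes on the array, and 0 of them were bright enough to be tested.

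**Figure D4:**
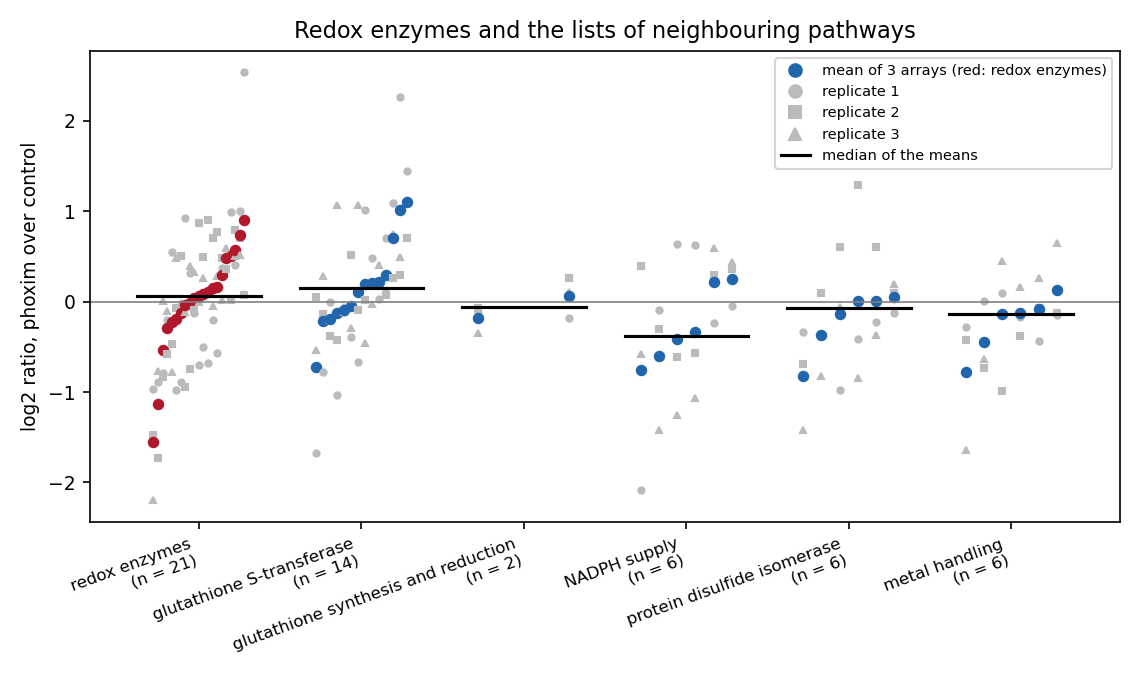
Log2 ratios of phoxim over control RNA (y axis) for the redox enzymes (red) and the probes of 5 neighbouring lists (blue), with grey symbols for the arrays and black lines for the median of the means. The medians lie between -0.37 for NADPH supply and 0.15 for glutathione S-transferases.

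The median log2 ratios of some tissue marker lists lay away from 0, that of muscle farthest. Fat body markers such as storage proteins were above background on all arrays for 26 of 37 probes in phoxim RNA and 24 in control RNA. The median log2 ratio of the 28 tested was 1.03, -0.31 and 0.36 on replicates 1, 2 and 3 (0.31 on replicate 2 as labelled). Of 46 muscle probes, 19 were above background on all arrays in phoxim RNA and 9 in control RNA, and 11 and 23 were never above it. Their summed intensity was 92381 to 155373 in phoxim RNA and 25408 to 79324 in control RNA, and the median log2 ratio of the 21 tested was 2.81, 0.38 and 1.32 on replicates 1, 2 and 3 (-0.38 on replicate 2 as labelled). The median of the means was 1.58 for muscle and 0.30 for fat body. Over the other marker lists it ran from -0.37 for Malpighian tubule to 0.18 for hemocytes, with 0.06 for midgut. Either RNA could carry a probe through the filter, so the muscle medians include probes whose control signal was not above background on every array. The marker lists were also trimmed after the values were seen. These medians are a description and no test of a tissue. The part of muscle RNA in the redox enzyme values was not tested. Above background in the Cy5 channel were 27.0% to 44.4% of the gene probes and in the Cy3 channel 18.9% to 27.2%, and Cy5 held the phoxim RNA on replicates 1 and 3. With a dye term in the fit, the mean was -1.53 for Jafrac1, -1.28 for LOC733003, 0.73 for Cat and 0.45 for the peroxiredoxin 4-like probe.

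**Figure D5:**
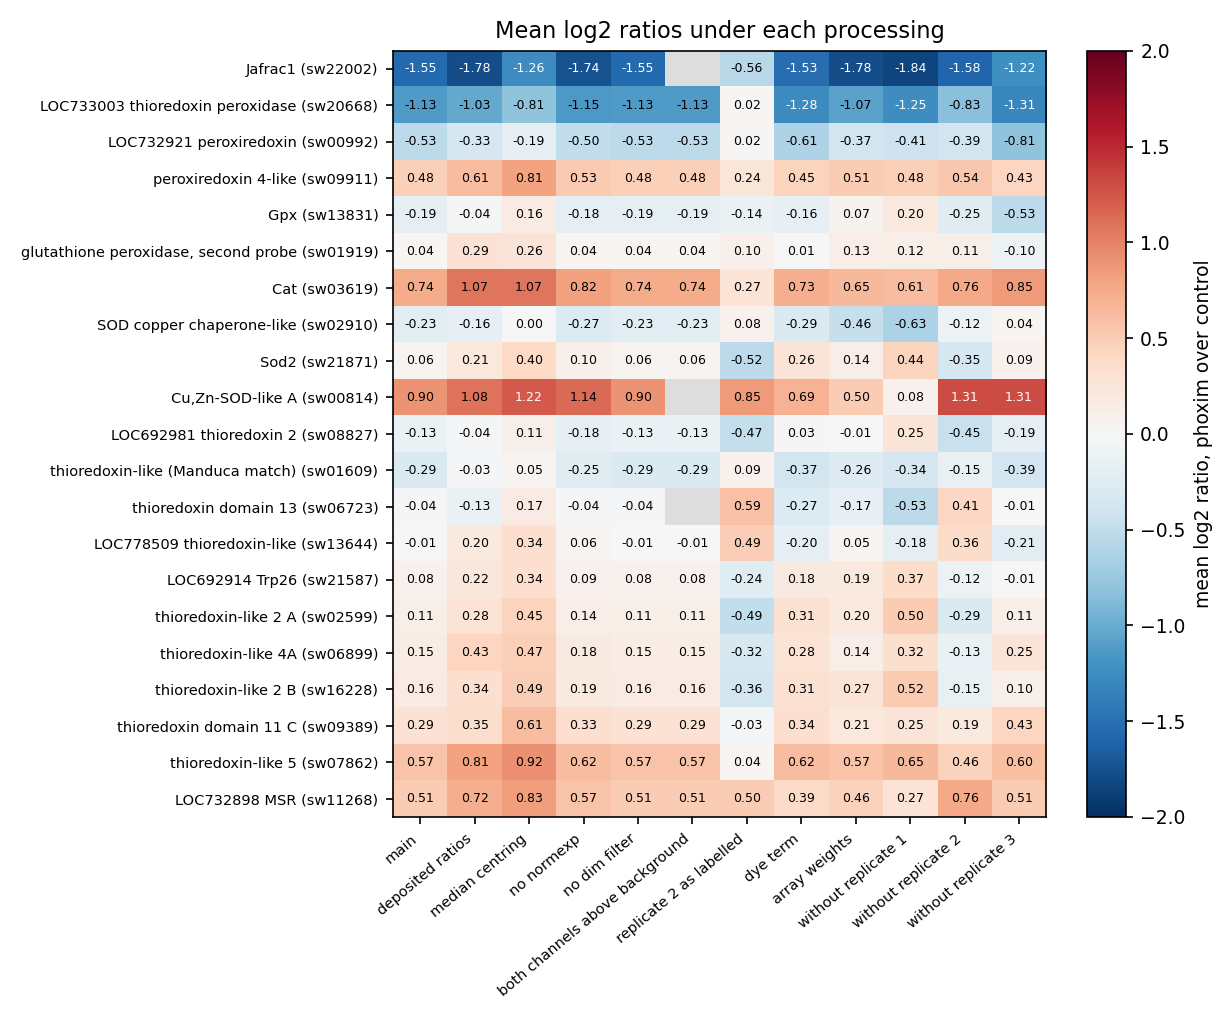
Mean log2 ratio of phoxim over control RNA (colour and printed value) of the 21 redox enzyme probes (rows) under the processing used here (first column) and 11 alternatives, with grey where a probe did not pass that filter. Cat runs from 0.27 to 1.07 over all columns and Jafrac1 from -1.84 to -0.56 over those where it was kept. It has no value where both channels had to be above background. LOC733003 stands at 0.02 where replicate 2 is turned as labelled.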

How the data were processed

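Fat body RNA was measured on 3 two-colour arrays of 24288 spots, with 23229 gene probes. The intensity values of both channels are those the authors deposited, and they were treated as already background-subtracted because some lie below 0. The ratio column is phoxim over control per the file headers, and it differs from the quotient of the intensities, so the authors normalized it. For that normalization, the scanner and the background settings, no method is given in the labels or headers. Their deposited log2 values equal the log2 of that ratio within 5e-09, so the scale is known, as is the direction against that column, but not which RNA was in which dye on replicate 2. The column medians are 0.01, -0.02 and 0.05, and the centring is unknown.

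Normexp (offset 50) was applied to the intensities, then loess within each array with control spots at weight 0. A probe was tested if, on each of the 3 arrays, either dye gave more than the level under which 95% of the 382 negative controls fell. The mean log2 ratio was tested against 0 with limma 3.58.1 in R 4.3.3 (two-sided, Benjamini-Hochberg over 6154 probes, threshold 0.05). The array pairs the samples. Levels of both groups were set side by side after Aquantile normalization. Spots at 99% of a channel's maximum counted as saturated. The fit was also run on simulated data with the same noise SD for all probes, as a check of the code. That run does not measure how well the fit performs on these arrays.

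Replicates are labelled as biological. The redox genes and lists were chosen with earlier results of these data known, and members matched by wording alone were taken out of the marker and regulator lists after the values were seen. Named are all redox probes tested and the 2 smallest p-values of each list, plus LOC692848, LOC733113 and sw16039, chosen after their values were seen. The number of arrays limits the precision.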

Additional observations from a re-analysis of the deposited data

How the results depend on the processing

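No redox enzyme, and no probe at all, had an adjusted p under 0.05 by limma under any of the 11 alternatives run. At an unadjusted p under 0.05, 673 probes and 3 redox probes were counted in the processing used here. The counts were 1869 and 6 with no filter on dim probes, 297 and 0 with replicate 2 as labelled, and 332 to 708 and 1 to 3 with a replicate left out. Cat was not counted whichever replicate was left out, with an unadjusted limma p of 0.087 to 0.093. With a dye term its unadjusted limma p was 0.066. All probes and redox probes came to 349 and 2 with both channels above background, and to 376 and 2 with a dye term. The median over the redox probes, 0.06, was 0.22 with the deposited ratios, 0.34 with median centring and -0.12 to 0.25 with a replicate left out. Median centring moved the median of all probes to 0.24 and the deposited ratios moved it to 0.09. Of 228 combinations of redox probe and alternative, 193 kept the direction and 35 reversed it. The direction held in every alternative where the probe was tested for 6 probes (Jafrac1, Cat, sw09911, sw07862, sw00814 and LOC732898). All alternatives use the same 3 arrays, so this tally is no independent support. A mean near 0 reverses easily, as for LOC778509, which had a mean of -0.01 and 6 of the reversals. With replicate 2 as labelled, the reversed means were 0.59 for sw06723, 0.49 for LOC778509, 0.08 for sw02910, 0.02 for LOC732921, 0.09 for sw01609, -0.24 for LOC692914, -0.49 for sw02599, -0.36 for sw16228, 0.02 for LOC733003, -0.03 for sw09389, -0.52 for Sod2 and -0.32 for sw06899. Median centring gave 0.17 for sw06723, 0.16 for Gpx, 0.34 for LOC778509, 0.00 for sw02910, 0.05 for sw01609 and 0.11 for LOC692981. LOC778509 stood at 0.20 with the deposited ratios, 0.06 without normexp and 0.05 with array weights. Array weights gave 0.07 for Gpx and the dye term 0.03 for LOC692981. With a replicate left out, the means ran from -0.53 to 0.20 for Gpx, -0.45 to 0.25 for LOC692981, -0.53 to 0.41 for sw06723, -0.21 to 0.36 for LOC778509, -0.12 to 0.37 for LOC692914, -0.29 to 0.50 for sw02599, -0.15 to 0.52 for sw16228, -0.35 to 0.44 for Sod2, -0.13 to 0.32 for sw06899, -0.63 to 0.04 for sw02910 and -0.10 to 0.12 for sw01919. The cause of these reversals was not tested. Jafrac1, sw00814 and sw06723 were not kept where both channels had to be above background. The test is itself paired, since each array holds the treated and control RNA of a replicate, so no further replicate block could be added. Signal over background limits the 12 dim redox probes.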
